A study of Mus musculus with 4 samples.

Results

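The Rhox genes are a cluster of X-linked homeobox genes, and all annotated genes whose symbol starts with Rhox were taken as its members. There were 42 of them among the 49554 annotated genes of chromosomes 1 to 19 and X. They lay on the X chromosome from 37213804 to 38306028 (mm10), a stretch of 1092.2 kb. Of the 42, 33 were protein-coding, 8 were pseudogenes and 1 was a long noncoding RNA. By gene number, 27 fell in subcluster alpha (Rhox1 to Rhox4), 8 in beta (Rhox5 to Rhox9) and 7 in gamma (Rhox10 to Rhox13). The alpha genes include tandem copies, with 9 genes numbered Rhox2, 9 numbered Rhox3 and 8 numbered Rhox4.

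The data are bisulfite sequences of the whole genome, in which unmethylated cytosines read as T, from germline stem (GS) cells of the mouse. These are spermatogonial stem cells grown from testis with the factors GDNF and FGF2. They carried wild-type genotype and a GFP transgene (C57BL/6 Tg14(act-EGFP)OsbY01) on a DBA/2 background, and had spent roughly 5 (5M-GS) or 60 (60M-GS) months in culture. Each culture age had 2 replicates, pooled in a single table by the authors, so the replicates' spread is not known. Every comparison is therefore between 2 pooled libraries, and its 95% intervals cover counting error only. Whether the replicates were separate cultures is not stated, and the age of a culture and any other difference between the pooled libraries cannot be told apart.

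Rhox genes encode transcription factors of the testis, ovary and placenta. Rhox5, the founding gene, is expressed in Sertoli cells, the nurse cells of the seminiferous tubule, and Rhox10 promotes the establishment of spermatogonial stem cells. In the embryo proper the cluster is a classic target of de novo DNA methylation by DNMT3A and DNMT3B, and it is kept less methylated in the placenta. No RNA was measured here, so methylation is described without reference to expression.

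Over the members, with 2 kb on each side of every gene, 54.8% of 24011 calls were methylated in 5M-GS, against 58.7% of 24764 in 60M-GS. The difference was 3.87 points (95% interval 2.99 to 4.75, Newcombe's method). By subcluster, the intervals of alpha and beta lay above 0 and that of gamma included it. Subcluster alpha stood at 53.1% in 5M-GS, against 59.5% in 60M-GS, differing by 6.45 points (interval 5.10 to 7.80). Subcluster beta stood at 61.7% and 66.9%, differing by 5.20 points (interval 3.67 to 6.72). Subcluster gamma stood at 50.6% and 49.3%, differing by -1.37 points (interval -3.05 to 0.320), and the sign of this value changed with the processing, to 0.141 points as a mean over CpGs and 0.437 points over the whole stretch from Rhox10 to Rhox13.

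The difference in alpha exceeded that in gamma by 7.82 points (interval 5.66 to 9.98), and that in beta exceeded gamma by 6.56 points (interval 4.29 to 8.84). Alpha and beta were closer, with beta minus alpha at -1.26 points (interval -3.29 to 0.782). Rhox5 had the lowest difference of beta, and without it the subcluster's difference was 9.25 points (interval 7.60 to 10.9). The difference was also unequal among the alpha genes numbered Rhox2, Rhox3 and Rhox4, pseudogenes included. Over the Rhox3 genes methylation was 70.1% in 5M-GS, against 81.2% in 60M-GS. Over the Rhox2 genes it was 43.2% and 48.7%, and over the Rhox4 genes 63.6% and 62.9%. The Rhox2 genes include the pseudogene Rhox2-ps, which held 79 of their 323 CpGs and stood at 43.5% and 56.2%. The Rhox3 genes include the pseudogenes Rhox3b-ps (86.4% and 87.9%) and Rhox3d-ps (63.3% and 89.1%). Differences without the pseudogenes were not computed. The Rhox3 difference exceeded that of Rhox2 by 5.65 points (interval 2.54 to 8.75) and that of Rhox4 by 11.8 points (interval 8.17 to 15.4). The 4 Rhox7 genes of beta together went from 64.3% to 77.1%, with unequal parts: Rhox7a differed by 25.6 points, Rhox7b by 20.1, Rhox7-ps1 by 6.59 and Rhox7-ps2 by -3.38.

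**Figure D1:**
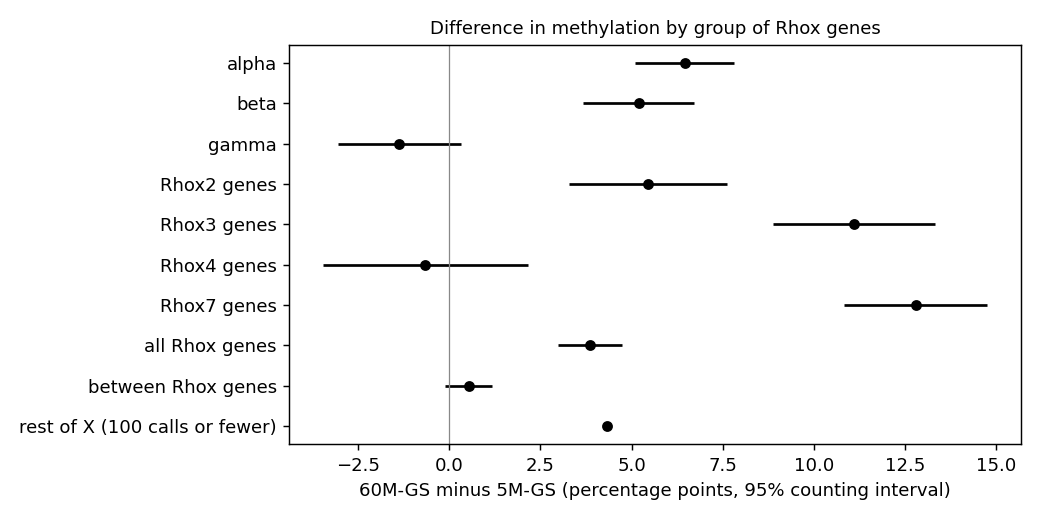
Difference in methylation between 60M-GS and 5M-GS (x axis, percentage points) for groups of Rhox genes (y axis); points are differences of summed calls and bars are 95% counting intervals. The Rhox3 and Rhox7 genes lie farthest to the right, at 11.1 and 12.8 points, and the intervals of gamma and Rhox4 include 0.

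How the members compare with their chromosome depends on what is counted. On the rest of X, over CpGs with at most 100 calls, 74.3% of calls were methylated in 5M-GS, against 78.6% in 60M-GS, differing by 4.32 points. The Rhox difference minus that of the rest of X was -0.449 points (interval -1.33 to 0.431). Over the whole stretch from Rhox1 to Rhox13, without flanks and without the distal Rhox7-ps1, the difference was 1.82 points. Without the members whose number is followed by a letter it was 2.08 points. That leaves out Rhox7a and Rhox7b as well as the lettered Rhox2, Rhox3 and Rhox4 copies. Both differences were below that of X. On the autosomes the difference was 1.16 points over the 17070286 CpGs with at most 100 calls, which the members exceeded by 2.71 points (interval 1.83 to 3.59). Over all 17077212 autosomal CpGs it was 3.95 points. The step from 1.16 to 3.95 points comes from the few CpGs with more than 100 calls, so 3.95 does not describe most autosomal CpGs. Between the Rhox genes, over the CpGs of the cluster more than 2 kb from any member, the levels were 77.0% and 77.5%. The difference over the members exceeded the one between them by 3.34 points (interval 2.26 to 4.42).

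Over all CpGs listed, the median was 10 calls in 5M-GS and 11 in 60M-GS across the cluster, and 8 in each for alpha. Among the CpGs used, which reached 5 calls in each table, it was 13 in each table within the cluster and 12 on the rest of X. In the copied genes fewer CpGs could be used: 61.6% of the CpGs listed in alpha reached 5 calls in both tables, against 76.9% in beta and 83.0% in gamma. The longest stretches without such a CpG ran for 119 kb from 37271823, covering Rhox3a2, for 50.3 kb from 37703143, and for 50.2 kb from 37754622 inside Rhox5. All 8 CpGs of the 300 bp promoter windows of both Rhox2a and Rhox2b had 0 calls in both tables. Copies with nearly the same sequence can exchange reads, and the cells' DBA/2 background differs from the C57BL/6J strain of the mm10 reference. The part of either, or of a different number of copies, in the values of single Rhox2, Rhox3 and Rhox4 genes was not tested. The promoter windows of 6 germline genes, among them the germ cell genes Ddx4 and Dazl, were at 5.77% or less in 5M-GS and 6.74% or less in 60M-GS. Of the Sertoli list only Cldn11 had a tested promoter window, at 7.19% and 12.8%. Of the 5 upper ends of that list, Cldn11 gained (41.3% and 83.7%), and Sox9, Amh, Wt1 and Gata4 differed by -2.06, -0.384, -2.09 and -8.12 points. Of the pluripotency list, 3 promoter windows were tested, with Nanog at 84.9% and 67.4%, Pou5f1 at 5.14% and 2.23%, and Zfp42 at 3.06% and 4.49%. The part of other cell types in the Rhox values was not tested.

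Gene by gene, each span with its 2 kb flanks was put to a two-sided Fisher's exact test, adjusted over all annotated genes. A gain or loss required an adjusted p under 0.05 and a difference of at least 20 points. Of the 40 members with at least 4 usable CpGs, 5 gained methylation in 60M-GS and 0 lost it. The share of 12.5% was near the 13.4% of other X chromosome genes and above the 4.35% of all genes. Losses were 0.0502% of all genes and 0.0876% of other X chromosome genes. Regardless of size, 16 members had an adjusted p under 0.05 with a higher level in 60M-GS and 3 with a lower level. The shares of all genes and of other X genes that pass this p alone are not given here. These 2 counts therefore do not set the members apart from other genes. The median difference of the 40 was 2.30 points, against 0.277 points over all genes and 1.36 points over other X chromosome genes. Rhox4a and Rhox3a2 had too few CpGs to be tested.

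The 5 spans that gained belonged to Rhox3 and Rhox7 genes. Rhox7a stood at 47.0% of 1005 calls in 5M-GS, against 72.6% of 996 in 60M-GS, a difference of 25.6 points (adjusted p = 1.44e-30 by Fisher's exact test; interval 21.4 to 29.7). Its pseudogene relative Rhox7b stood at 50.9% and 71.0%, differing by 20.1 points (interval 15.8 to 24.3). Among the Rhox3 copies, the pseudogene Rhox3d-ps stood at 63.3% and 89.1%, Rhox3f at 69.8% and 90.1%, and Rhox3g at 41.2% and 66.3%. Rhox3d-ps and Rhox3f rest on few CpGs, 19 and 29, and Rhox3f was at 8.54 points with at least 10 calls per CpG. With 5 kb flanks Rhox3g kept its call at 20.7 points, whereas Rhox7a was at 16.4, Rhox3d-ps at 14.5, Rhox7b at 13.3 and Rhox3f at 8.86 points. Rhox7b is close to the limit and was at 17.7 points with at least 3 calls per CpG and 17.4 points without flanks. The flanks of neighbouring members overlap in places, as do the annotated bodies of Rhox8 and Rhox7b, and 129 of the 1812 CpGs counted belong to more than 1 member.

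The lowest differences belonged to Rhox5, Rhox3a and Rhox4d. Rhox5 stood at 80.8% of 1056 calls in 5M-GS, against 61.3% of 1103 in 60M-GS, a difference of -19.5 points (adjusted p = 1.85e-22 by Fisher's exact test; interval -23.2 to -15.7), just under the size limit. Without flanks it was past the limit, at -24.4 points, and with at least 10 calls per CpG at -23.1 points. Rhox3a, with 11 CpGs, stood at 63.1% and 47.5% (adjusted p = 0.0562 by Fisher's exact test), and Rhox4d at 82.7% and 74.8% (adjusted p = 0.239). Neither value was steady: with 5 kb flanks Rhox3a was at 1.29 points, and Rhox4d ranged from -16.5 points with at least 3 calls per CpG to -1.35 with at least 10. Of the 40 spans tested, 25 were higher and 15 lower in 60M-GS, and the same count for other genes is not given here.

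**Figure D2:**
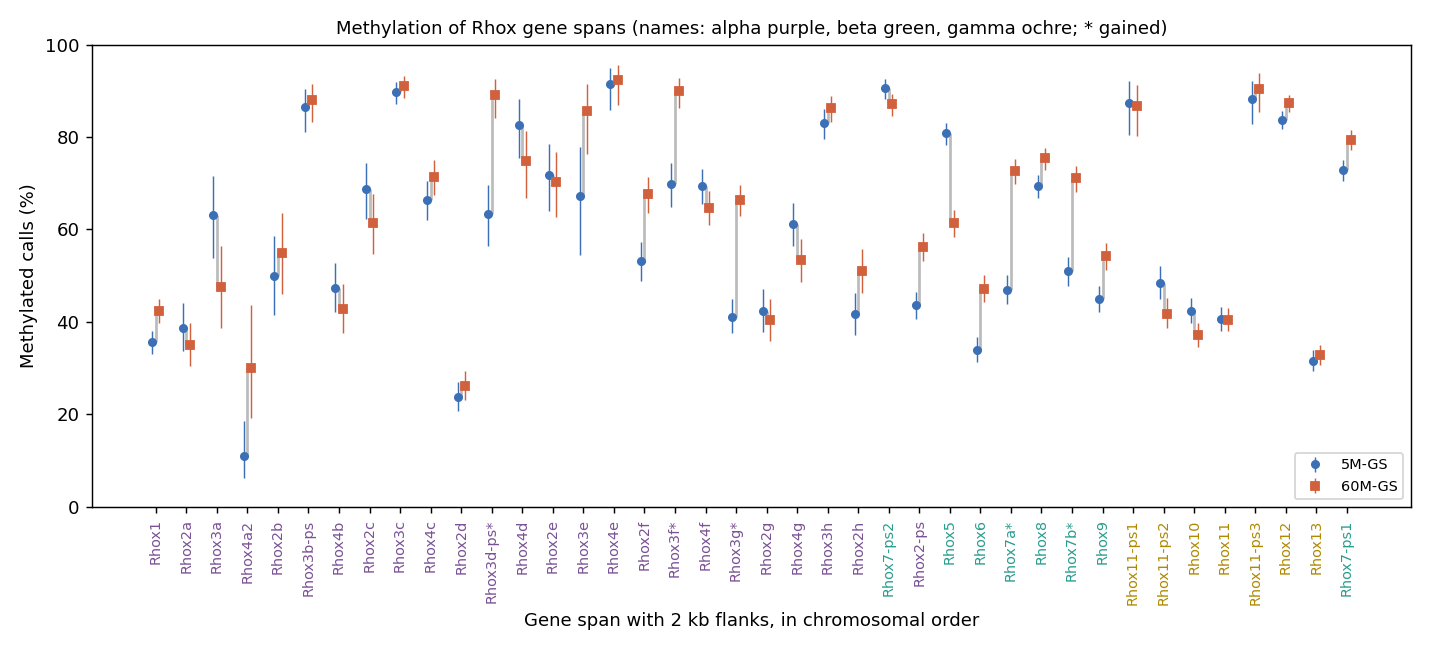
Methylation level (y axis, percent of methylated calls) of the 40 tested Rhox gene spans with 2 kb flanks in chromosomal order (x axis), for 5M-GS (circles) and 60M-GS (squares), with 95% Wilson intervals; stars mark the 5 spans that gained. Rhox5 has the lowest difference, with 60M-GS below 5M-GS.

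The 2 ends of each gene, taken 1 kb to each side, showed where within the genes the levels differed. Of the 84 Rhox ends, 58 could be tested, and 7 gained (12.1%) while 0 lost. Gains made up 6.16% of all gene ends and 13.5% of those of other X chromosome genes, and losses 0.317% and 0.18%. Unlike that of the spans, the median difference of the Rhox ends, -0.249 points, was below the 0.988 points of other X chromosome genes and the 0.0693 points of all genes. Gains were found in 4 of 32 alpha ends, 3 of 14 beta ends and 0 of 12 gamma ends. By level in 5M-GS, 2 of the 15 Rhox ends under 10% gained (13.3%), against 5.10% of such ends of other X genes and 1.29% of all genes. Of the 11 Rhox ends between 10% and 50%, 5 gained (45.5%), against 52.5% on the rest of X and 31.3% of all genes. Of the 4 Rhox ends between 50% and 80%, 0 gained, against 29.4% on the rest of X and 13.6% of all genes. Of the 28 Rhox ends at 80% or more 0 gained, where the limit leaves almost no room. Counting error of 5M-GS also enters the classes.

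Direction of transcription was taken from RefSeq promoter entries (GRCm38.p6), which matched 28 of the 42 members. An end is called lower or upper by its coordinate where no entry was matched. At the 5' ends, 2 of the 21 tested members gained (9.52%), Rhox3f and Rhox2h, against 4.59% of all genes and 8.86% of other X genes, while 0 lost, against 0.355% and 0.227%.

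Rhox2 genes were nearly free of methylation at the usable CpGs of their 5' ends, with the exception of Rhox2h in the longer culture. All 7 Rhox2 5' ends were under 10% in 5M-GS, from 0% in Rhox2a to 5.88% in Rhox2h. Some rest on little: in 5M-GS Rhox2e had 4 CpGs with 21 calls (upper Wilson limit 22.7%), Rhox2b 58 calls and Rhox2c 49. The values of Rhox2a and Rhox2b come from CpGs outside their 300 bp promoter windows, where no CpG had calls. In 60M-GS, 6 of the 7 remained under 10%. Rhox2h rose from 5.88% of 255 calls to 28.1% of 235, a difference of 22.2 points (adjusted p = 3.33e-10 by Fisher's exact test; interval 15.8 to 28.7). Over 2 kb to each side the Rhox2h difference was 10.3 points, under the limit. Its neighbour Rhox2g was at 4.20% and 3.19%, and Rhox2d, with 33 CpGs, at 5.33% and 5.43%. The lower end of Rhox2f gained more, from 4.19% of 191 calls to 46.1% of 206, a difference of 41.9 points (interval 34.2 to 49.0).

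The promoter sequences of Rhox2h and Rhox2g show how alike these copies are. The Rhox2h window lies at chrX:37673228-37673527 and that of Rhox2g at chrX:37643421-37643720, both on the minus strand (RefSeq, GRCm38.p6). Each is printed 5′ to 3′, from 250 bases before to 50 after the gene's start, with CpGs in capitals. Rhox2g was chosen after its values were seen.
Rhox2h: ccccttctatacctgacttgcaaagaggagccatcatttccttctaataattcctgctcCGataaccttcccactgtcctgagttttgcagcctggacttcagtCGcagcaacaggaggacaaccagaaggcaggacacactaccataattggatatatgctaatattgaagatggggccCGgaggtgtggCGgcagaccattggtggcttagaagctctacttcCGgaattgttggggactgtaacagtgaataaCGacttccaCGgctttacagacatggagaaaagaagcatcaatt
Rhox2g: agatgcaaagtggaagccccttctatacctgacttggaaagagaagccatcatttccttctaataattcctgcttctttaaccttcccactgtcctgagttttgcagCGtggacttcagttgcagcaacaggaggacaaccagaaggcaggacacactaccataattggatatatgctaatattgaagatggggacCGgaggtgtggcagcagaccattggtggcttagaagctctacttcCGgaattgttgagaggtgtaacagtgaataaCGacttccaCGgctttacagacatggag
The aligned bases of this pair were 95.4% identical. In the Rhox2h window 4.76% of 84 calls were methylated in 5M-GS, against 46.4% of 84 in 60M-GS, a gain of 41.7 points (adjusted p = 6.63e-09 by Fisher's exact test; interval 29.3 to 52.6). It was the only gain among 13 tested Rhox windows of this length, against 4.37% of all such windows and 6.11% of those of other X genes, and 0 lost, against 0.801% of all. In Rhox2g 2.04% of 49 calls and 0% of 66 were methylated, a sample that allows a level of up to 4.55% in 60M-GS by 3 calls. All 7 CpGs of the Rhox2h window were higher in 60M-GS. The CpG at base 226 went from 0% of 10 calls to 50% of 12, and the one at base 60 from 0% of 10 to 38.5% of 13.

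The CpG at base 226 of Rhox2h lies in the letters CTTCCGG, the reverse complement of CCGGAAG, a core that ETS factors such as GABPA recognise. On either strand CCGGAAG was found in 9.21% of all 26794 promoter windows of this length and in 8 of the 28 Rhox windows, namely Rhox5 and the 7 matched Rhox2 genes. The CpG within it had usable calls in Rhox2c, Rhox2d and Rhox2g besides Rhox2h, and was at 0% in both tables in each of those 3. In Rhox5 it was at 100% of 9 calls and 100% of 13. The letters CACGTG were found in 7.30% of all windows and in 5 Rhox windows, all of them Rhox4 genes, where their CpG had too few calls. GCGGGAA was found in 4.71% of all windows and only in Rhox11-ps2 among the Rhox windows.

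Of the Rhox3 5' ends, Rhox3c and Rhox3g were already mostly methylated in 5M-GS, and Rhox3f gained. Only 3 of 7 could be tested. Rhox3f went from 41.0% of 139 calls to 92.8% of 152, a difference of 51.8 points (adjusted p = 3.11e-21 by Fisher's exact test; interval 41.9 to 60.2). The Rhox3f gain was 22.5 points with at least 10 calls per CpG. Rhox3c was at 82.8% and 88.4%, and Rhox3g at 77.1% and 89.9% (adjusted p = 0.0229 by Fisher's exact test, under the size limit). The lower end of the pseudogene Rhox3d-ps also gained, from 40.7% to 87.2%. In all of these, 60M-GS was near 90%.

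The Rhox3g promoter is shown because its span gained while this window did not pass the test. It holds 4 CpGs and lies at chrX:37628090-37628389 on the minus strand.
Rhox3g: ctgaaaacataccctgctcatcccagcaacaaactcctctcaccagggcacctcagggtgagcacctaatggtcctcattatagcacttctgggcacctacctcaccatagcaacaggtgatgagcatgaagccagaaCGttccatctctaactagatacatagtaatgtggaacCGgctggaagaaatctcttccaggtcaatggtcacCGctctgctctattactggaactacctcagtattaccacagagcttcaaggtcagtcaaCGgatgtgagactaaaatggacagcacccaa
In this window 72.5% of 51 calls were methylated in 5M-GS, against 91.8% of 61 in 60M-GS (adjusted p = 0.12 by Fisher's exact test). The gains within Rhox3g lay in its body. A pair of neighbouring 1 kb tiles from 37625001 to 37627000 inside it, which also hold the pseudogene Dppa3-ps, went from 18.6% of 446 calls to 53.4% of 496.

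Rhox4 genes, of which Rhox4b was described as Ehox in embryonic stem cells, were mostly low at their 5' ends, except Rhox4c. None of the 5 tested gained or lost. Rhox4b was at 7.69% in 5M-GS, against 0.588% in 60M-GS, and Rhox4g at 15.0% and 2.37%, with intervals of the difference from -12.2 to -2.98 and from -19.0 to -6.77 points. Rhox4c was the most methylated, at 27.0% and 38.5% (adjusted p = 0.0736 by Fisher's exact test). Rhox4f was at 11.4% and 8.67%. The 5' levels of Rhox2, Rhox4 and Rhox3 had medians in 5M-GS of 4.20%, 11.4% and 77.1%.

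**Figure D3:**
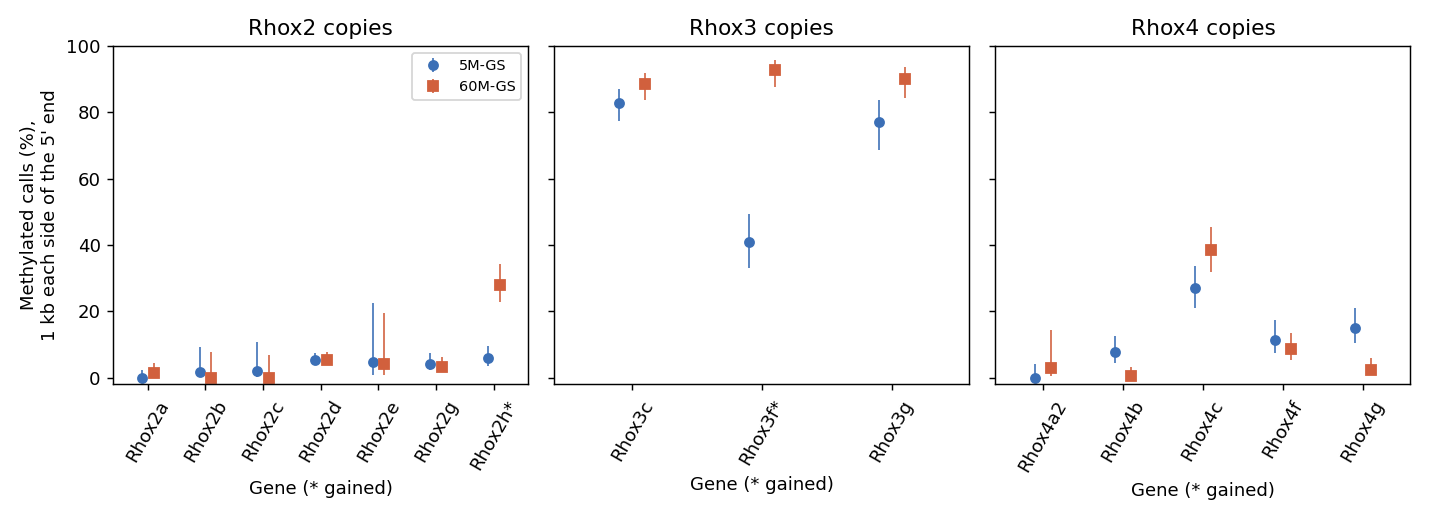
Methylation level within 1 kb of the 5' end (y axis, percent of methylated calls) of the tested Rhox2, Rhox3 and Rhox4 copies (x axis) in 5M-GS (circles) and 60M-GS (squares), with 95% Wilson intervals; stars mark gains. Rhox2h and Rhox3f stand apart from the other copies of their families.

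Rhox1 opens the cluster and its 5' end had too few CpGs to be tested. Its span was at 35.5% and 42.3%. A tile from 37211001 to 37212000, at the edge of the Rhox1 flank, had the largest gain of the tiles called in the cluster, from 10.2% of 264 calls to 96.5% of 341 (interval of the difference 81.3 to 89.7 points). This tile adjoins the neighbouring gene Gm9, whose 1500 bp promoter window went from 20.6% to 96.1%. The remnant Rhox2-ps, with 52 or more CpGs around each end, was just under the limit at both ends, whose windows overlap, with 24.4% and 43.1% at the lower and 13.7% and 32.7% at the upper end.

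Among the beta genes, Rhox7a held the largest change at a gene end. Its lower end rose from 22.9% of 319 calls to 85.6% of 270, a difference of 62.7 points (adjusted p = 4.18e-54 by Fisher's exact test; interval 55.9 to 68.3). The 3 tiles from 37830001 to 37833000, which straddle the lower end of Rhox7a, went together from 37.2% of 430 calls to 86.6% of 374. The upper end of Rhox7b rose from 39.9% to 79.6%, differing by 39.7 points (interval 32.9 to 46.1). The upper end of Rhox8, a Sertoli cell gene, rose from 18.9% to 40.4%, differing by 21.4 points (interval 14.0 to 28.5). That gain was 18.8 points with at least 3 calls per CpG and 15.7 points over 2 kb to each side, under the limit in both cases. The upper end of Rhox8 lies inside Rhox7b, so its CpGs also count in the Rhox7b span.

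The placental and germ cell genes Rhox6 and Rhox9, once named Psx1 and Psx2, had no end or span that passed the limit. The lower end of Rhox6 was at 4.34% and 9.36%, and the upper end of Rhox9 at 14.1% and 16.7%. The other end of Rhox6, toward Rhox7a, was at 75.6% and 90.3% (adjusted p = 1.19e-05 by Fisher's exact test, under the size limit).

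Rhox5 was lower in 60M-GS just inside its 3' end and methylated at its outermost annotated start in both libraries. Starts further inside the gene, if any, were not tested, and no CpG could be used for 50.2 kb from 37754622. The 300 bp window at the outermost start lies at chrX:37754358-37754657 on the plus strand.
Rhox5: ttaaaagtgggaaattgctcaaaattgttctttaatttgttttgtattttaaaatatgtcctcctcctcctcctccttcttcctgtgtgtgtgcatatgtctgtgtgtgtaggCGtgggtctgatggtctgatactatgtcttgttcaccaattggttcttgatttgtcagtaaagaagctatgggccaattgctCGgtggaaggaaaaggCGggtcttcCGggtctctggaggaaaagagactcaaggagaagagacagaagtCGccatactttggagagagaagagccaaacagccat
In this window 93.2% of 59 calls were methylated in 5M-GS, against 90.1% of 71 in 60M-GS (adjusted p = 1 by Fisher's exact test; interval of the difference -13.1 to 7.56 points). The 3 tiles from 37806001 to 37809000, which reach the 3' end of the gene, were the only tiles of the cluster that lost methylation. Together they went from 80.8% of 558 calls to 50.8% of 592, a difference of -30.0 points (interval -35.0 to -24.7). The middle tile was at 77.4% and 36.0%. Within 1 kb of the 3' end itself the levels were 73.9% and 56.4%, differing by -17.5 points (interval -25.7 to -8.97), and within 2 kb the difference was -28.4 points, past the limit. Within 500 bp it was -4.42 points (adjusted p = 0.789 by Fisher's exact test), and as a mean over CpGs within 1 kb it was -8.25 points.

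**Figure D4:**
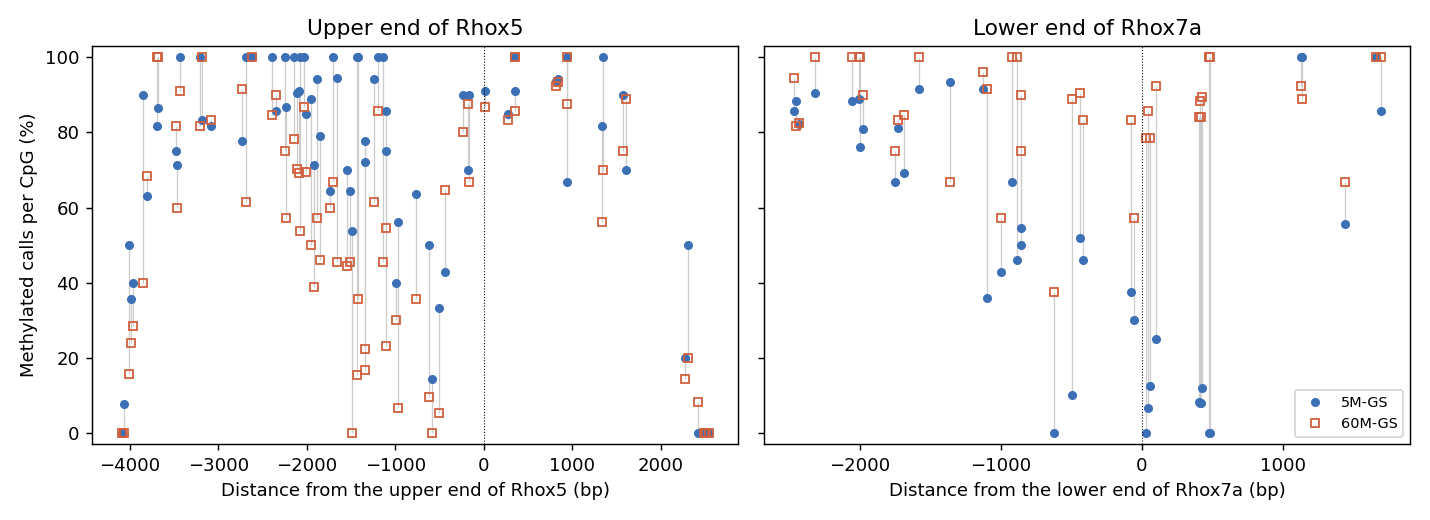
Methylation of single CpGs that reached 5 calls in each table (y axis, percent of methylated calls) against distance in bp from the upper end of Rhox5 (left, x axis) and from the lower end of Rhox7a (right), for 5M-GS (filled circles) and 60M-GS (open squares), with lines joining the same CpG. Within 2 kb before the Rhox5 end most CpGs are lower in 60M-GS, and those around the Rhox7a end are higher.

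Of the gamma 5' ends tested, 4 of 5 were under 10% in both libraries and 0 passed the limit. Rhox11 was at 1.51% and 1.78%, Rhox13, a gene of germ cells that enter differentiation and meiosis, at 5.77% and 7.84%, and Rhox11-ps2 at 9.11% and 8.35%. Rhox12 was the exception in level, at 83.5% and 82.1%. Its 300 bp promoter window was lower, at 29.6% of 27 calls and 37.9% of 29, but held only 2 usable CpGs and was not tested. Rhox10 was at 7.25% of 621 calls and 2.77% of 687, a difference of -4.48 points (adjusted p = 0.00126 by Fisher's exact test; interval -7.00 to -2.14), below the size limit. Its span was at 42.4% and 37.2%, and that of Rhox13 at 31.5% and 32.8%.

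The promoters of Rhox10, at chrX:38066225-38066524, and Rhox13, at chrX:38120590-38120889, both on the plus strand, are shown as gamma starts with low levels in 5M-GS.
Rhox10: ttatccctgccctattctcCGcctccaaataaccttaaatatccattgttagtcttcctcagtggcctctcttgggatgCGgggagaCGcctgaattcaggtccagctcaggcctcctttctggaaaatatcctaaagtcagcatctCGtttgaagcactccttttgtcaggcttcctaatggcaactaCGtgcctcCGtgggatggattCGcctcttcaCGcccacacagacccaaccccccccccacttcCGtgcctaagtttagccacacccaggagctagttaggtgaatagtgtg
Rhox13: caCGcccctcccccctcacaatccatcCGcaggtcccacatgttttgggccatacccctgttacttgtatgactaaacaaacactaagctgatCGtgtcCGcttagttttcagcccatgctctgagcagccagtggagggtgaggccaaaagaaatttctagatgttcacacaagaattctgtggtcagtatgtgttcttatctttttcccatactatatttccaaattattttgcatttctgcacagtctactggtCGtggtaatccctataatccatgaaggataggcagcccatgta
All 9 CpGs of the Rhox10 window were at 0% in 60M-GS, over 104 calls, which allows a level of up to 2.88% by 3 calls. In 5M-GS the window was at 7.44% of 121 calls (adjusted p = 0.053 by Fisher's exact test). In Rhox13 the window was at 2.17% of 46 calls and 17.8% of 45 (adjusted p = 0.164 by Fisher's exact test). The CpG at base 100 of Rhox13 held 5 of the 8 methylated calls in 60M-GS, with 7.69% of 13 calls and 50% of 10.

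Along the cluster, 23 of 445 tested tiles of 1 kb gained and 3 lost. The gains were 5.17% of its tiles, against 3.48% of all tiles and 8.95% on the rest of X, and the losses 0.674%, against 0.475% of all and 0.463% on the rest of X. The median difference of its tiles was 0.0713 points, against -0.452 points over all tiles and 0.973 points on the rest of X. Of the 23, 3 lay farther than 2 kb from any member. A tile inside the distal remnant Rhox7-ps1, from 38300001, went from 6.22% of 241 calls to 42.0% of 269, and a tile from 37661001 in Rhox3h from 26.5% to 78.6%.

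**Figure D5:**
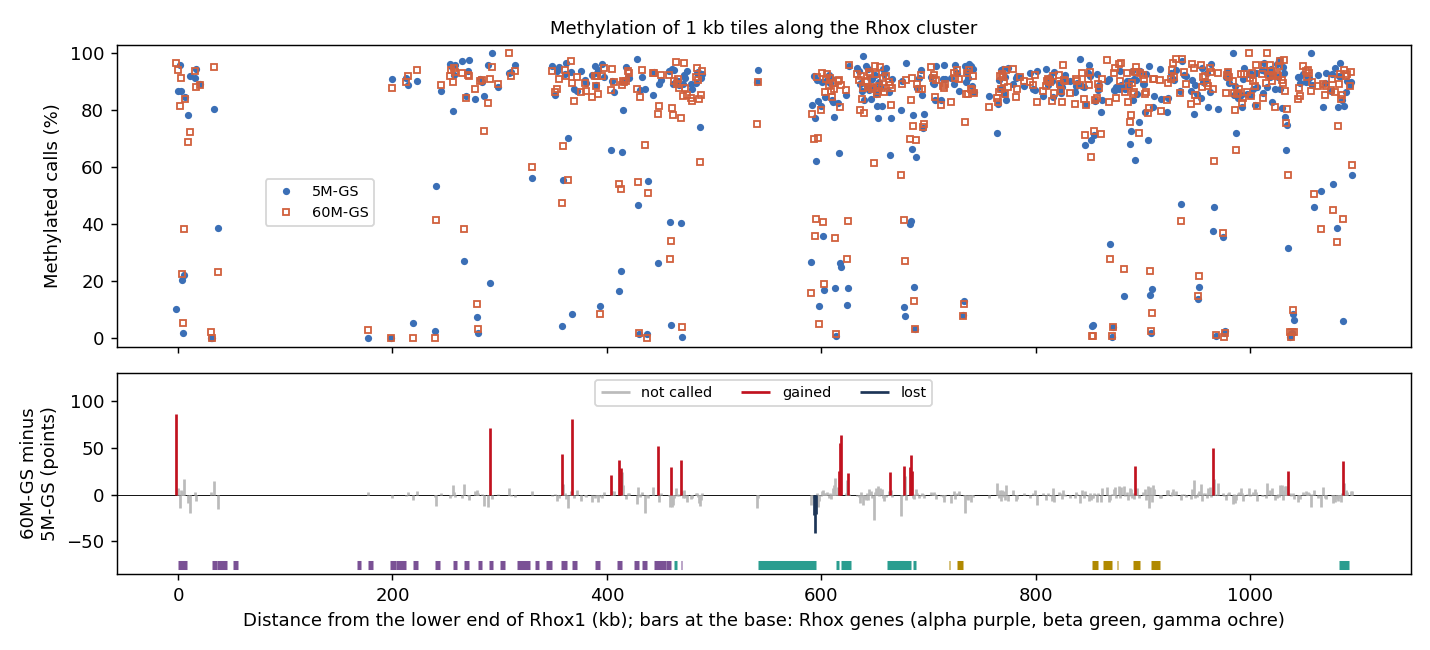
Upper panel: methylation of 1 kb tiles with at least 4 CpGs (y axis, percent) along the cluster (x axis, kb from the lower end of Rhox1) in 5M-GS (filled circles) and 60M-GS (open squares). Lower panel: difference in percentage points, with the 23 gains and 3 losses coloured and the Rhox genes drawn as bars at the base; gains are scattered along the cluster, and the losses lie at the end of Rhox5.

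The cluster held 2509 single CpGs that reached 10 calls in each table, of which 40 gained and 0 lost (Fisher's exact test over all such CpGs). The gains were 1.59%, against 2.02% of all CpGs and 2.39% on the rest of X, and losses were 0.215% of all CpGs and 0.0762% on the rest of X. The share of CpGs under 20% was 23.0% in 5M-GS, against 20.1% in 60M-GS, and on the rest of X it was 11.1% and 9.30%. The 5 largest changes were gains in Rhox7-ps1 at 38300920 (7.69% and 100%), outside any member at 38180013 (0% and 90.9%), between Rhox7b and Rhox9 at 37897649 (18.8% and 100%), in Rhox7a at 37832098 (8% and 88.2%) and at Rhox3d-ps at 37504595 (6.67% and 85.7%).

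The genes around the cluster and those known to act on it were counted in the same way. Of the 10 protein-coding neighbours on the lower side, 1 span gained, that of Gm9 (49.1% and 88.5%), and of the 10 on the upper side 0. Among 1500 bp promoter windows, 1 of the 9 tested on the lower side gained, that of Gm9. On the upper side 2 of the 8 tested gained, those of Atp1b4, a member of the sodium pump beta family (43.8% and 92.4%), and of 6030498E09Rik (37.5% and 84.9%). Such gains made up 4.48% of all genes and 7.98% of other X genes, and losses 0.499% of all. Among the Rhox genes, 2 of 21 such windows gained, those of Rhox2h and Rhox3f. At gene ends Gria3, a glutamate receptor gene on the upper side, also gained (38.7% and 75.8%). Inside the cluster none of the 4 other protein-coding genes, Btg1b, Btg1c, Zbtb33 and Tmem255a, had a span that gained or lost.

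Of the regulators of Rhox methylation and transcription, 0 of 19 tested promoter windows gained or lost. For the maintenance methyltransferase gene Dnmt1, the window at the outermost annotated start held 15 CpGs and was at 94.3% and 92.1%. Any other start of Dnmt1 was not tested, so these values do not describe all its promoters. Dnmt3a, a de novo methyltransferase gene, was at 0.917% and 0.502%, and its relative Dnmt3b at 0.922% and 1.34%. Under the size limit, the window of their cofactor Dnmt3l was at 74.9% and 63.4% (adjusted p = 4.22e-04 by Fisher's exact test), and the upper end of Dnmt1 at 75.8% and 92.8% (adjusted p = 7.70e-18 by Fisher's exact test). The median promoter difference of the 19 was 0.107 points, against 0.140 points over all genes. Of 15 germline genes known to be silenced by promoter methylation in other tissues, 1 gained, Tex19.1, which restrains retrotransposons (34.4% and 89.6%). Of 3 tested Rhox5 target genes 0 gained. Of 5 tested windows of other homeobox genes of reproductive tissues or X, 1 gained, that of Obox5, an oocyte homeobox gene (40.8% and 69.6%). At gene ends Obox6 (30.4% and 74.6%) and Pou3f4 (67.9% and 90.2%) also gained.

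The calls on a read are not independent, and dividing the calls of each region by its CpGs, a conservative test, left 0 of the 5 spans and 0 of the 7 ends. The smallest adjusted p among these ends was then 0.081, for Rhox7a. For the Rhox5 stretch of 3 tiles Fisher's exact test on divided calls gave p = 0.11, unadjusted. The same test left 0.105% of all gene spans and 1.31% of all gene ends as gains.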

How the data were processed

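DNA methylation was measured in mouse GS cells after 5 or 60 months of culture by bisulfite sequencing of post-bisulfite adaptor tagging libraries, per the labels' protocols. The submitters' processing notes name Bismark 0.10.0 and mm10. Counts, not normalized, fill the deposited tables: they hold counts of methylated and unmethylated calls per CpG, and beside them the authors' percent of methylated calls, used only as a check. Both replicates of an age are pooled in 1 table. Each CpG is listed at 1 position, so its strands appear merged. How reads were filtered or deduplicated is not given in the sources used here. The tables held 468121185 calls (5M-GS) and 471693518 calls (60M-GS).

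From the counts, levels were summed over CpGs that reached 5 calls in each table (10 for single CpGs) in regions with at least 4 such CpGs. Fisher's exact test (two-sided) was adjusted by Benjamini-Hochberg over all regions of a kind on chromosomes 1 to 19 and X. It was tested on simulated data with independent calls and no replicate spread, so the simulation covers neither dependence of calls on a read nor that spread. Promoter windows used the outermost RefSeq start of each gene. Named members were Rhox5, Rhox10, Rhox13, all called members and the 3 highest and 3 lowest spans. Others are named beside them for comparison, chosen after their values were seen. A result for 1 listed gene is not reported here. Members and lists were chosen with earlier results of these data known. Python 3.11.15, numpy 2.4.6, pandas 2.3.3, numba 0.67.0 and Biopython 1.88 were used. The alternatives concerned depth limits, window sizes, thresholds, divided calls and mean CpG levels. The alternatives for the Rhox5 stretch were chosen after seeing the data.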

Additional observations from a re-analysis of the deposited data

How the results depend on the processing

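No paired analysis was possible because each table pools its replicates, and for the same reason no replicate could be left out. The 5 Rhox spans that gained became 0 with divided calls, 11 at a minimum difference of 10 points (10 gains and 1 loss), 0 at 30 points, 8 without flanks (7 gains and 1 loss) and 2 with 5 kb flanks. The 7 ends became 0 with divided calls and 13 at 10 points (11 gains and 2 losses). Promoter windows of 1500 bp gave 2 gains in place of 1. Over the whole interval from the first to the last member not named -ps, without flanks, the differences were 3.53 points in alpha, 3.29 in beta and 0.437 in gamma (reversed). From Rhox1 to Rhox13 the difference was 1.82 points. Without the members whose number is followed by a letter, the differences were 9.34 in alpha, 3.21 in beta and 2.08 over all. In alpha this left only Rhox1 and Rhox2-ps, and in beta it removed Rhox7a and Rhox7b. Without flanks alpha stood at 9.04, and as means over CpGs gamma was at 0.141 (reversed) and all members at 4.84. For gamma, whose interval includes 0, no direction can be given. Among single named spans and ends and the Rhox5 stretch, 166 alternatives left the outcome as it was, called or not, 30 lost a call and 5 gained one. For the stretch, a p under 0.05 by Fisher's exact test counted as a call. The sign turned in 1 of these alternatives, for the span of Rhox3a, which was not called (-15.6 points, and 1.29 with 5 kb flanks). For the Rhox5 stretch, chosen after seeing the data, Fisher's exact test on divided calls gave p = 0.11. In alpha fewer of the listed CpGs reached 5 calls than in beta or gamma, and the cause was not tested.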
